A study of Mus musculus with 20 samples.

Results

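The genes with which a cell makes its own fatty acids and cholesterol were followed through 20 breast tumors. The 30 genes were chosen by symbol, as the rows of the count table that bear the listed names, of 43346 genes in that table. Of these, 15 belonged to the fatty acid branch and 15 to the cholesterol branch. All 30 were found, and all 30 passed the filter on low counts together with the other genes among the 18883 tested.

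Each tumor came from a different female [BALB/c-neuT x FVB/J] F1 mouse, the offspring of BALB/c fathers with the neuT transgene and wild-type FVB/J mothers. The neuT transgene is an activated form of the rat Her2/neu oncogene, and every tumor in either group carried it. The labels put 9 tumors in a group named Lo and 11 in a group named Hi, and no source used here says what these names stand for. Each mouse bore several tumors, a small frozen piece of a single tumor gave the RNA, and the RNA of all mice was handled together; the age of single mice was not given, and there was no normal gland to compare with. Tumors are named here by group and number, such as Hi 3, and the numbers do not pair tumors across groups.

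Cells build fatty acids from acetyl-CoA, which is carboxylated to malonyl-CoA and joined into palmitate by fatty acid synthase, then lengthened by elongases and given double bonds by desaturases. Cholesterol also starts from acetyl-CoA, through mevalonate, isoprenoids, squalene and lanosterol. The transcription factors SREBP-1 and SREBP-2, encoded by Srebf1 and Srebf2, are known as activators of these genes, SREBP-1c mainly of the fatty acid genes and SREBP-2 mainly of the cholesterol genes. Insig proteins hold the SREBPs in the endoplasmic reticulum when sterols are plentiful, so that the activity of these factors is set by cleavage of the protein as well as by their mRNA. In the mammary gland the fatty acid genes are known for making the lipid of milk.

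The libraries held 38765682 to 65465755 counts. A ribosomal RNA locus took 6.29% to 27.7% of them. Levels are given as CPM, the counts scaled to a common library total, after TMM scaling, and between genes as CPM per kilobase of the listed gene length (RPKM). Markers of epithelial cells summed to 2699.8 to 4313 CPM, with Epcam at 876 CPM or more in every tumor. The 10 markers of fat cells summed to 13.3 to 46.9 CPM in the Lo tumors and 13.9 to 52.2 CPM in the Hi tumors, and 5 of them, Plin1, Lep, Retn, Adrb3 and Aqp7, were at 0 in at least 1 tumor. Lipe had the highest mean of the 10 and lay between 10.1 and 17.3 CPM, so it made up much of the low sums. It varied 1.72-fold, while Adipoq varied 12.8-fold and Cidec 124-fold. Leukocyte markers summed to 102 to 150 CPM and fibroblast markers to 603 to 2274 CPM. In pieces of whole tumor, fewer cells of a type and less RNA per cell cannot be told apart.

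The fatty acid branch spanned a wider range of levels than the cholesterol branch. Per kilobase, the desaturase genes Scd2 and Scd1 stood highest, at 161 ± 20.5 and 146 ± 36.4 RPKM (SD, n = 20), followed by the regulator Srebf1 at 123 ± 15.8 RPKM. Me1, whose malic enzyme supplies NADPH, stood at 97.2 ± 17 RPKM. At the low end were Acss2, which makes acetyl-CoA from acetate, at 2.44 ± 0.441 RPKM and Acacb, the mitochondrial acetyl-CoA carboxylase, at 2.15 ± 0.316 RPKM. The adjacent ranks in these orders overlap: the spreads of Scd2 and Scd1 cover each other, as do those of Acss2 and Acacb. The highest cholesterol gene was Fdps, the farnesyl diphosphate synthase, at 50.1 ± 8.03 RPKM, and the lowest was Mvk, the mevalonate kinase, at 4.37 ± 0.639 RPKM. Scd1 and Scd2 are close paralogs, and Fdps and Cyp51 are known to have processed pseudogenes, so the way the authors' counting shared such reads could move their levels.

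**Figure D1:**
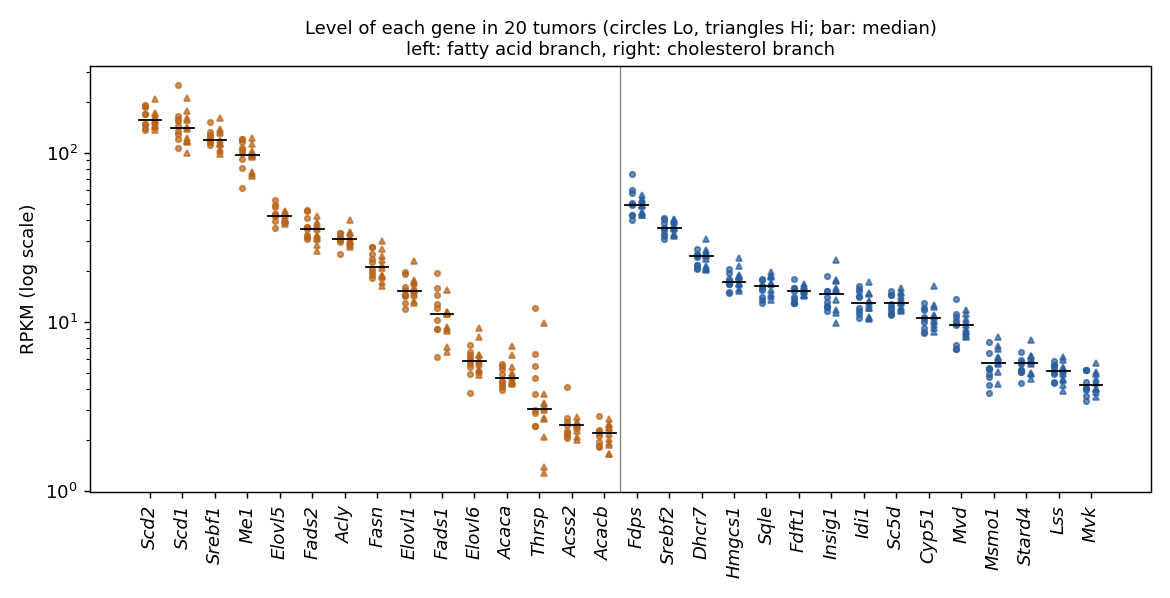
Level of each of the 30 genes in each of 20 tumors, in RPKM on a log scale, ordered by mean within the fatty acid branch (left) and the cholesterol branch (right); circles are Lo tumors, triangles Hi tumors and bars medians. Scd2, Scd1, Srebf1 and Me1 stand above all cholesterol genes by median, and Thrsp has the widest scatter of the 30.

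The carbon and reducing power for fatty acids come through Acly, Acss2 and Me1. Acly, which cleaves citrate to cytosolic acetyl-CoA, lay between 132 and 176 CPM in the Lo tumors (median 164) and between 146 and 212 CPM in the Hi tumors (median 161). Acss2 lay between 20.8 and 41.5 CPM in Lo (median 22.9) and between 20.3 and 27.6 CPM in Hi (median 25.1). The tumor Lo 8 was the highest of all 20 for Acss2 and the lowest of all 20 for Acly. Me1 lay between 237 and 464 CPM in Lo (median 401) and between 279 and 471 CPM in Hi (median 371). Lo 1 was the lowest for Me1 and Hi 11 the highest, and the groups overlapped for all 3 genes.

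Malonyl-CoA is made by the carboxylases Acaca and Acacb, and Fasn joins it into palmitate. Acaca lay between 60 and 85.8 CPM in Lo (median 68) and between 65.2 and 109 CPM in Hi (median 71.4). Fasn lay between 178 and 272 CPM in Lo (median 223) and between 160 and 296 CPM in Hi (median 204). Hi 3 was the highest tumor for Acaca and for Fasn. Acacb lay between 17.6 and 26.7 CPM in Lo and between 15.8 and 25.5 CPM in Hi, highest in Lo 8.

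Among the genes that modify the chain, Scd1, which puts the double bond into stearate and palmitate, lay between 514 and 1216 CPM in Lo (median 697) and between 484 and 1018 CPM in Hi (median 671). Lo 4 and Hi 5 were the highest for Scd1. Fads1, the delta-5 desaturase of polyunsaturated fatty acids, varied 3.11-fold between its lowest tumor, Lo 3 at 21.5 CPM, and its highest, Lo 11 at 66.7 CPM. Fads2, the delta-6 desaturase that lies near Fads1 on chromosome 19 (mm10 positions 10064164 to 10101503, with Fads1 at 10182888 to 10196870), varied 1.77-fold. Elovl6, which lengthens palmitate, lay between 22.7 and 43.6 CPM in Lo (median 34.9) and between 28.9 and 54.6 CPM in Hi (median 34.4). Elovl5, an elongase of polyunsaturated chains, was among the steadiest genes of the branch, with an SD of 0.13 on the log2 scale.

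Thrsp, the thyroid hormone responsive Spot 14 gene known as a promoter of lipid synthesis in liver and mammary gland, varied most of the 30. It lay between 3.07 and 15.4 CPM in Lo (median 4.76) and between 1.63 and 12.6 CPM in Hi (median 3.85). Its highest tumor, Lo 4, stood 9.45-fold above its lowest, Hi 10, and the next highest was Hi 8. Its SD on the log2 scale was 0.799, wider than in 94.6% of the genes tested. Srebf1, by contrast, lay between 629 and 856 CPM in Lo (median 677) and between 557 and 910 CPM in Hi (median 645).

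The cholesterol genes kept to narrower ranges. Srebf2 lay between 155 and 205 CPM in Lo (median 178) and between 161 and 201 CPM in Hi (median 182), and only 8.3% of the genes tested had an SD below its 0.126 on the log2 scale. Insig1, the sterol-dependent anchor of the SREBPs, was the most variable of the branch: it lay between 31.2 and 50.4 CPM in Lo (median 35.2) and between 26.6 and 62.7 CPM in Hi (median 41.1). Hi 3 was the highest tumor for Insig1 and Hi 11 the lowest.

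In the early steps, Hmgcs1, which makes HMG-CoA, lay between 47.5 and 66.7 CPM in Lo (median 54.4) and between 49.1 and 77.1 CPM in Hi (median 59.1). Mvd, which decarboxylates mevalonate diphosphate, spanned 12.1 to 24 CPM over all tumors, and Mvk spanned 9.06 to 15.3 CPM. Idi1, the isopentenyl diphosphate isomerase, spanned 36.5 to 60.5 CPM. Fdps was highest in Lo 11, at 93.3 CPM, above the next tumor at 74.2 CPM.

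Squalene is made by Fdft1 and oxidised by Sqle, and Lss closes the product into lanosterol. Fdft1 varied 1.4-fold over the tumors and Lss 1.58-fold. Sqle lay between 71.9 and 98.7 CPM in Lo (median 86.5) and between 74.6 and 109 CPM in Hi (median 92.9), highest in Hi 3. Among the late steps, Cyp51, the lanosterol demethylase, lay between 36.9 and 55.6 CPM in Lo (median 44.2) and between 37.1 and 69.9 CPM in Hi (median 45.5). Msmo1, the methylsterol monooxygenase that acts after it, lay between 23.4 and 46.7 CPM in Lo (median 32.3) and between 26.2 and 49.8 CPM in Hi (median 36.4). Both were highest in Hi 3, as was Sc5d, the sterol C5-desaturase. Dhcr7, the last reductase of the pathway, was highest in Hi 7, at 117 CPM. Stard4, a carrier of cholesterol between membranes, lay between 24.2 and 37.1 CPM in Lo (median 29.1) and between 25.8 and 43.4 CPM in Hi (median 32.8).

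The median SD over tumors on the log2 scale was 0.221 in the fatty acid branch, 0.195 in the cholesterol branch and 0.251 over all genes tested. Of the 15 fatty acid genes 9 lay below the median of all genes, and of the 15 cholesterol genes 12 did. The fatty acid genes ran from 0.13 to 0.799 and the cholesterol genes from 0.126 to 0.293. These are descriptions, and the difference between the branches was not tested.

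Some tumors moved with nearly the whole of a branch. In Hi 3, 14 of the 15 cholesterol genes stood above their 20-tumor median, and their mean deviation, the log2 CPM minus each gene's own mean averaged over the branch, was 0.305. Hi 3 was the highest of all tumors for 12 of the 30 genes, 8 of them in the cholesterol branch (Insig1, Hmgcs1, Idi1, Sqle, Cyp51, Msmo1, Sc5d and Stard4) and 4 in the fatty acid branch (Fasn, Acaca, Scd2 and Elovl6). In Hi 7 all 15 cholesterol genes were above their medians, although only 6 of the 15 fatty acid genes were. At the other end were Lo 9, with 1 of 15 cholesterol genes above the median and a mean deviation of -0.222, Lo 6 with 0 of 15 and -0.213, and Hi 11 with 1 of 15 and -0.202. Lo 6 and Lo 9 had the highest shares of the ribosomal RNA locus of the 20 libraries, 27.7% and 22.01%, and that of Hi 11 was 12.6%. Lo 2, next at 21.57%, had 14 of 15 cholesterol genes above the median and a mean deviation of 0.158. Hi 3 had the lowest summed level of epithelial markers, 2699.8 CPM, and the lowest Krt8, Krt18 and Cldn3. The part of these in the branch values was not tested. The counts above the median and at the highest level were taken for the members only, here and for the fatty acid branch below. Without the same shares over all genes of a tumor, they do not show a trait particular to the lipid genes.

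The fatty acid branch ranked the tumors in another order. Lo 4 had the highest mean deviation, 0.282, with 13 of 15 genes above the median, followed by Hi 5 with 0.186 and 11 of 15, while their cholesterol means were 0.0364 and -0.0543. Lo 3 had the lowest, -0.174, with 4 of 15. Over the 20 tumors the means of the branches had a Pearson r of 0.273 and a Spearman rho of 0.256, and an r of 0.158 without Hi 3. These values describe averages over the chosen genes, from the same libraries, and carry no test.

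**Figure D2:**
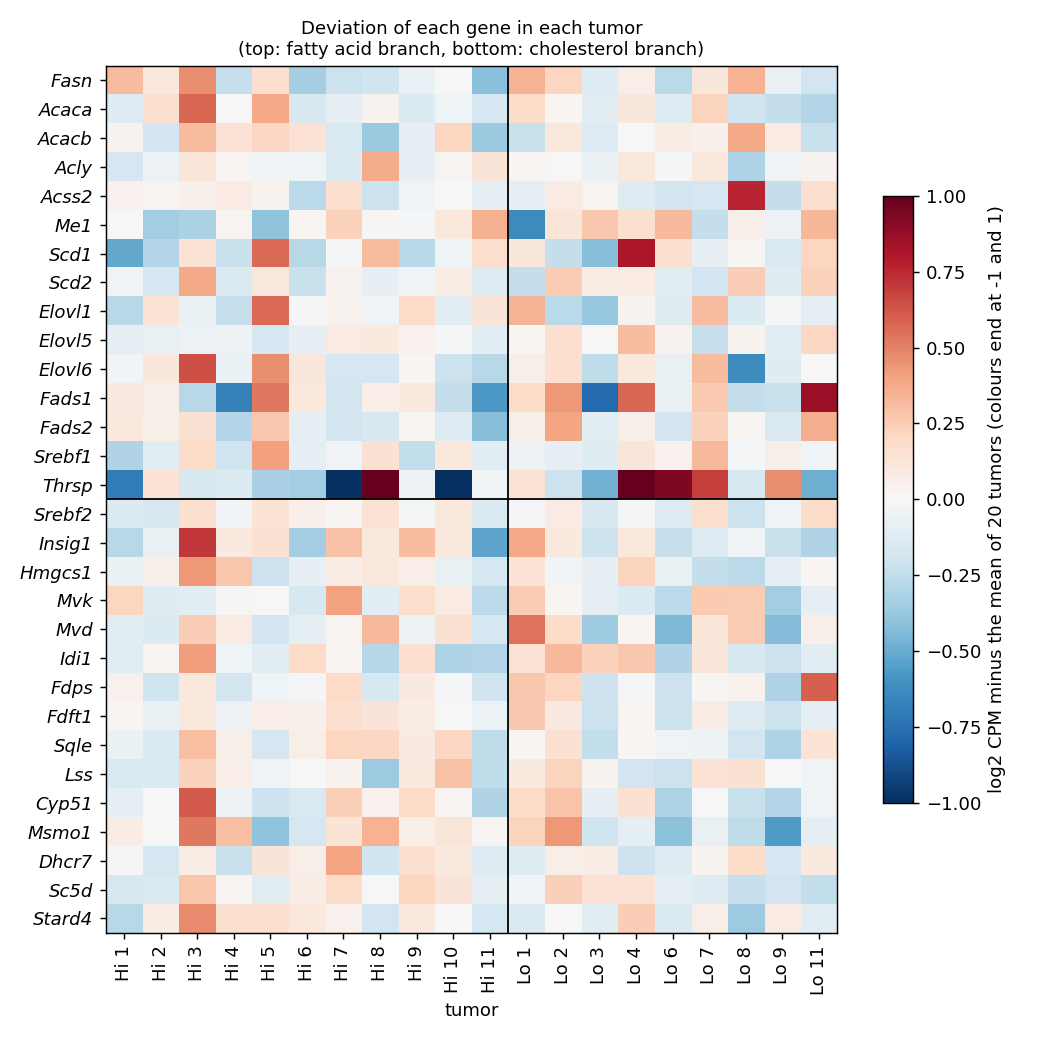
Deviation of each gene (rows; fatty acid branch above the line, cholesterol branch below) in each tumor (columns; 11 Hi left, 9 Lo right), as log2 CPM minus the gene's mean over 20 tumors; red is above and blue below the mean. The column of Hi 3 is red through most of the cholesterol branch, those of Lo 6, Lo 9 and Hi 11 are mostly blue there, and the Thrsp row reaches the ends of the scale.

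**Figure D3:**
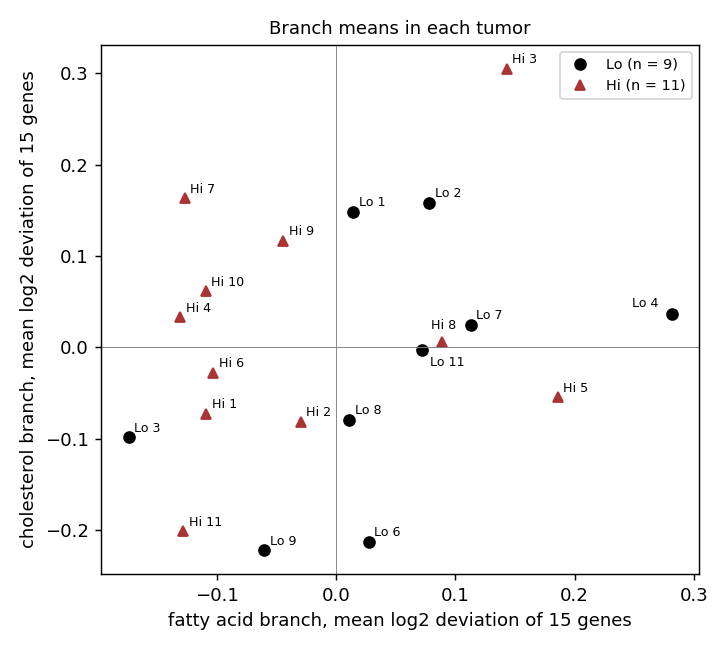
Mean log2 deviation of the 15 fatty acid genes (horizontal) and of the 15 cholesterol genes (vertical) in each tumor; black circles are the 9 Lo and red triangles the 11 Hi tumors. Hi 3 lies highest on the cholesterol axis (0.305) and Lo 4 farthest right on the fatty acid axis (0.282).

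The labelled groups were then compared. None of the 30 genes differed between Lo and Hi by edgeR's quasi-likelihood test with Benjamini-Hochberg adjustment over all genes, where 0 of 18883 genes (0.0%) were called. At an unadjusted p under 0.05 the count was 0 of 30, against 5.53% of all genes tested. DESeq2 called 0 of the 30 as well. On the log2 scale the fatty acid genes had a median difference of 0.07 (Lo minus Hi), with 11 of 15 higher in Lo, and the cholesterol genes a median of -0.07, with 4 of 15 higher in Lo, beside a median of 0.001 over all genes tested. Thrsp had the largest difference in size, 0.54 ± 0.33 (SE, adjusted p = 0.999), followed by Fads1, 0.24 ± 0.17 (adjusted p = 0.9996), and Msmo1, -0.20 ± 0.12 (adjusted p = 0.992). The ranges of Lo and Hi overlapped in all of them. Beside these directions, the 12 proliferation genes were all higher in Lo (median 0.20, 0 called, 3 at an unadjusted p under 0.05), and the ribosomal RNA locus took a median of 19.6% of counts in Lo and 14.02% in Hi, with overlapping ranges. Their part in the directions was not tested. Of the other genes of the pathways, 0 of 23 tested cholesterol genes and 0 of 26 tested fatty acid genes were called.

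Whether the genes varied with the mRNA of their regulators was asked by fitting each gene's counts on the log2 CPM of Srebf1 or of Srebf2. The slope is the difference in log2 level of the gene per unit of log2 CPM of the factor. On Srebf1, 0 of 29 other members were called, against 0.0% of all genes. At an unadjusted p under 0.05, 5 of 14 fatty acid genes (Scd1, Acaca, Elovl1, Elovl6 and Thrsp) and 1 of 15 cholesterol genes (Srebf2) had positive slopes and none a negative one, against 4.54% positive and 2.44% negative over all genes. The median slope was 0.32 for the fatty acid genes, 0.08 for the cholesterol genes and -0.03 over all genes. Without Hi 3 these medians were 0.30, -0.03 and -0.02, so that the cholesterol median changed sign. Scd1 had a slope of 1.26 ± 0.32 (SE, adjusted p = 0.428), and Fasn one of 0.25 ± 0.30 (adjusted p = 0.958).

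Scd1 and Srebf1 had a Pearson r of 0.657 over 20 tumors (permutation p = 0.00181, adjusted p = 0.596 over all genes) and a rho of 0.689 (permutation p = 0.00098, adjusted p = 0.961). With Hi 5 and Lo 7 left out, which lay farthest from Srebf1's median, r was 0.70. Within the 9 Lo tumors r was 0.308 and within the 11 Hi tumors 0.88, and the difference between the groups was not tested. Fasn and Srebf1 had an r of 0.199 (permutation p = 0.398, adjusted p = 0.954) and a rho of 0.248 (permutation p = 0.289, adjusted p = 0.968), with an r of 0.0898 without the same tumors, -0.0235 within Lo and 0.267 within Hi.

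On Srebf2, whose mRNA differed by no more than 1.32-fold between any of the tumors, 0 of 29 members were called, again against 0.0% of all genes. In simulated counts the same fit called 0 of 200 planted slopes of size 1 and 168 of 200 of size 3. The lack of calls therefore says little about slopes of the size seen here. At an unadjusted p under 0.05, 5 of 14 cholesterol genes (Sqle, Fdps, Cyp51, Stard4 and Fdft1) and 6 of 15 fatty acid genes (Elovl6, Srebf1, Fads1, Acly, Fads2 and Acaca) had positive slopes, against 2.49% of all genes, and none had a negative one, against 1.34%. All 14 cholesterol genes and 13 of 15 fatty acid genes had a slope above 0, with medians of 0.64 and 0.55 beside -0.02 over all genes. The order of the branches was not stable: the cholesterol and fatty acid medians were 0.52 and 0.60 without Hi 3, 0.71 and 0.75 without Lo 8 and Lo 11, and 0.48 and 0.63 with the fat cell markers as a second term. Sqle had a slope of 0.93 ± 0.25 (SE, adjusted p = 0.998). Sqle and Srebf2 had an r of 0.657 over 20 tumors (permutation p = 0.00193, adjusted p = 0.9995) and a rho of 0.687 (permutation p = 0.0011, adjusted p = 1). That r was 0.614 without Lo 8 and Lo 11, the tumors farthest from the median of Srebf2, 0.663 within Lo and 0.66 within Hi.

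The other pathway genes gave 0 calls in either fit. At an unadjusted p under 0.05, 3 of 23 cholesterol genes had positive slopes on Srebf2 and 2 of 23 on Srebf1, and of 26 fatty acid genes 0 had positive slopes on either factor and 1 a negative slope on Srebf1. Of the 7 fibroblast markers 0 were called on Srebf2, while 6 had positive slopes at an unadjusted p under 0.05, against 2.49% of all genes, with a median slope of 1.79. Their summed level ran from 603 CPM to 2274 CPM in Lo and from 675 CPM to 1834 CPM in Hi. Their part in the slopes of the lipid genes was not tested.

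How far the genes of a branch rose and fell together was described by the correlation of every pair over the 20 tumors. Within the cholesterol branch the median r of 105 pairs was 0.409 and 100 pairs were positive. Within the fatty acid branch the median r of 105 pairs was 0.181 and 68 were positive. Between the branches the median r of 225 pairs was 0.127, beside -0.00405 over all pairs of the 18883 genes. An r above 0.5 was reached by 38.1% of the cholesterol pairs, 9.52% of the fatty acid pairs, 6.67% of the pairs between branches and 4.62% of all gene pairs. The cholesterol median was 0.413 within Lo and 0.52 within Hi, the fatty acid median 0.141 and 0.11. The median between the branches was 0.159 within Lo and 0.169 within Hi, above that of the fatty acid branch in either group. Leaving out any 1 tumor kept the cholesterol median between 0.346 and 0.467 and the fatty acid median between 0.154 and 0.2, and the lowest cholesterol value came without Hi 3. The median between the branches ran from 0.0818, without Hi 3, to 0.171. With totals that leave out the ribosomal RNA locus it was 0.214, beside 0.206 within the fatty acid branch. The order of the fatty acid median and the median between the branches was thus not stable. The cholesterol median, 0.508 with those totals, stayed above both in every setting. The pairs share genes, libraries and scaling, and the difference between branches carries no test.

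**Figure D4:**
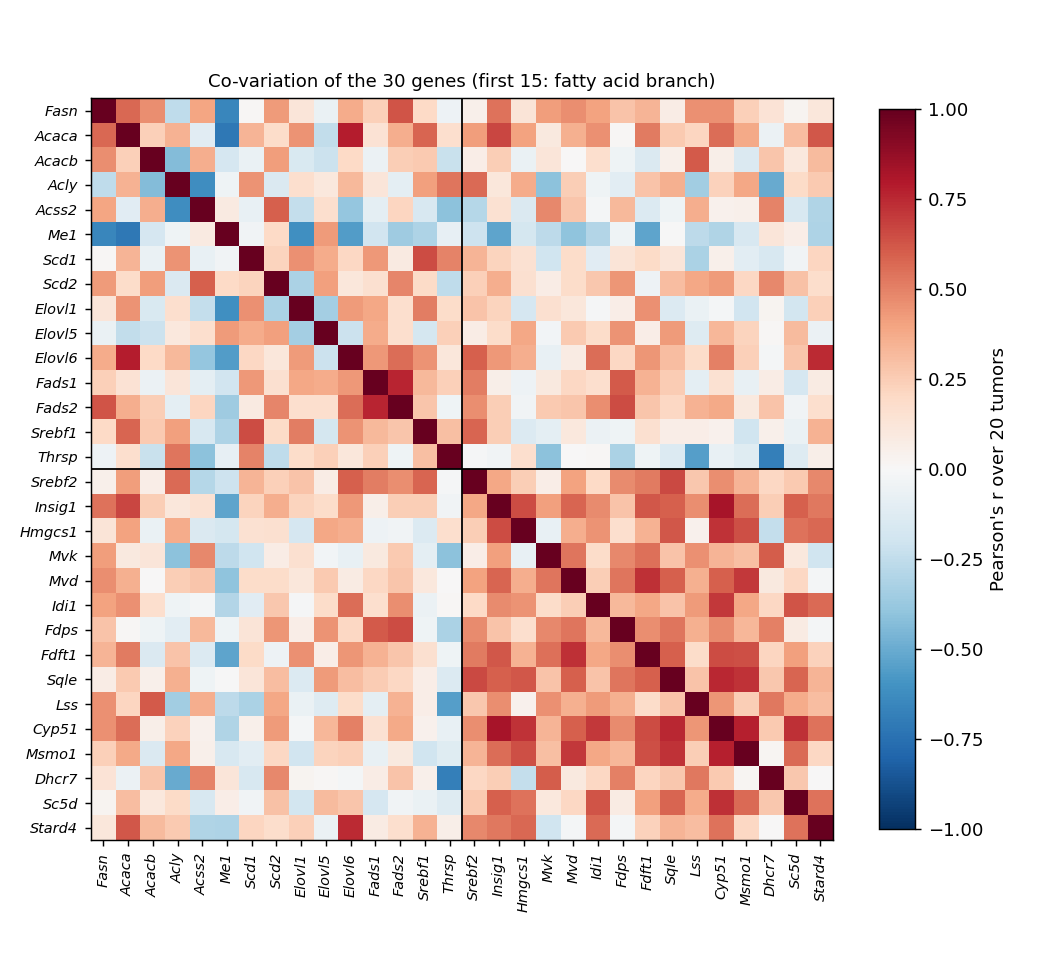
Pearson's r of log2 CPM over 20 tumors for every pair of the 30 genes; the lines part the fatty acid branch (first 15) from the cholesterol branch, red is positive and blue negative. The lower right block, the cholesterol genes, is nearly all red (median r 0.409), while the upper left block is mixed and the Me1 row is mostly blue.

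Cyp51 lay nearest the centre of the cholesterol branch, with a median r of 0.626 to the other 14 genes, followed by Sqle with 0.591 and Insig1 with 0.543. Dhcr7, with 0.23, and Mvk, with 0.322, lay at its edge, and Srebf2 itself had 0.361. In the fatty acid branch the highest medians were those of Srebf1, 0.292, and Acaca, 0.291. Me1 had a negative median to its own branch, -0.18, and to the cholesterol branch, -0.262, and so did Acss2 to its own branch, -0.0863.

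Each of the 30 genes was then used in turn as the covariate of a fit across all genes, an analysis added after the correlations had been seen. Of 870 ordered pairs of members, 9 were called (1.03%), against 0.378% of all genes over the 30 fits, each fit being adjusted on its own. Within the cholesterol branch 100 of 210 ordered pairs (47.6%) had a positive slope at an unadjusted p under 0.05 and none a negative one, against 4.49% of all genes over the 15 cholesterol fits. Within the fatty acid branch 42 of 210 (20%) were positive and 12 negative (5.71%), against 6.4% positive over the 15 fatty acid fits. Between the branches 56 of 450 (12.4%) were positive and 12 negative (2.67%), against 5.45% positive over all 30 fits. No negative share over all genes was taken for these fits, so the negative counts are not a result about the members. Each pair of genes enters in either direction, so the ordered pairs are not independent. Leaving out Hi 3 gave 18.1% within the fatty acid branch and 9.11% between the branches, and leaving out each covariate's 2 most distant tumors gave 13.3% and 6.67%. The share in the cholesterol branch was 37.1% without Hi 3, 36.2% when each fit left out the 2 tumors most distant from its covariate's median and 63.8% with totals that leave out the ribosomal RNA locus.

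The called pair of the cholesterol branch was Insig1 and Cyp51, whose fits called 0.0212% and 0.0318% of all genes. The slope of Cyp51 on Insig1 was 0.65 ± 0.11 (SE, adjusted p = 0.0186), the rank of 3 among 18882 genes by p, and that of Insig1 on Cyp51 was 1.03 ± 0.16 (adjusted p = 0.0211), the rank of 2. Their r was 0.823 (permutation p = 2e-05, adjusted p = 0.126) and their rho 0.744 (permutation p = 0.00028, adjusted p = 0.50), with an r of 0.711 within Lo and 0.874 within Hi. Without Hi 3, the highest tumor for either gene, r was 0.728 and the adjusted p of the slopes was 0.848 and 0.9999, so that neither slope was called. With Lo or Hi as a term, and Hi 3 kept, the adjusted p was 0.0613 for either slope. Without Hi 3 and Hi 11 r was 0.683. Msmo1 and Cyp51 had an r of 0.781 (permutation p = 2e-05, adjusted p = 0.126) and a rho of 0.761 (permutation p = 0.00015, adjusted p = 0.378). The r was 0.933 within Lo, 0.696 within Hi and 0.668 without Hi 3 and Lo 2.

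In the fatty acid branch Acaca and Elovl6 moved together, and their fits called 0.8% and 0.609% of all genes. The slope of Elovl6 on Acaca was 0.96 ± 0.17 (SE, adjusted p = 0.0194) and that of Acaca on Elovl6 0.62 ± 0.11 (adjusted p = 0.0164). Their r was 0.784 (permutation p = 6e-05, adjusted p = 0.059) and their rho 0.626 (permutation p = 0.00382, adjusted p = 0.34), with 0.653 within Lo, 0.857 within Hi and 0.549 without Hi 3 and Hi 5. Elovl6 also went with Stard4 of the cholesterol branch, with a slope of 1.06 ± 0.21 on Stard4 (adjusted p = 0.0238), whose fit called 0.853% of all genes, and of 0.53 ± 0.11 the other way (adjusted p = 0.038). The r of Stard4 and Elovl6 was 0.748 (permutation p = 0.00024, adjusted p = 0.0708), their rho 0.632 (permutation p = 0.00347, adjusted p = 0.202), with 0.709 within Lo, 0.763 within Hi and 0.478 without Hi 3 and Lo 8. Without Hi 3 none of these slopes was called, at adjusted p of 0.0872 and 0.112 for Acaca with Elovl6 and 0.192 and 0.196 for Stard4 with Elovl6.

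Me1 went the other way. The slope of Acaca on Me1 was -0.60 ± 0.13 (SE, adjusted p = 0.0131), that of Me1 on Acaca -0.86 ± 0.20 (adjusted p = 0.0436) and that of Fasn on Me1 -0.61 ± 0.16 (adjusted p = 0.0381). The tumors lowest for Me1, Lo 1, Hi 5, Hi 2 and Hi 3, had Acaca between 82.2 and 109 CPM, and the remaining tumors had 60 to 85.8 CPM. The r of Acaca and Me1 was -0.711 (permutation p = 0.00062, adjusted p = 0.0294) and their rho -0.574 (permutation p = 0.00947, adjusted p = 0.111), with -0.632 within Lo, -0.812 within Hi and -0.675 without Lo 1 and Hi 5. Fasn and Me1 had an r of -0.652 (permutation p = 0.00169, adjusted p = 0.0496) and a rho of -0.606 (permutation p = 0.00503, adjusted p = 0.0877), with -0.689 within Lo, -0.724 within Hi and -0.59 without the same tumors. The fit on Me1 called 706 of 18882 genes (3.74%), so that these 2 members stood among many. Without Hi 3 the slope of Acaca on Me1 was still called (adjusted p = 0.0232), and the other slopes were not (0.0703 and 0.0762). When each fit left out the 2 tumors most distant from its covariate's median, Lo 1 and Hi 5 for Me1, none of the 9 slopes was called, and that of Acaca on Me1 had an adjusted p of 0.0748.

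Neighbouring genes were also set side by side. Fads1 and Fads2 had an r of 0.763 (permutation p = 0.00012, adjusted p = 0.147) and a rho of 0.684 (permutation p = 0.00107, adjusted p = 0.276), with 0.748 within Lo, 0.761 within Hi and 0.751 without Lo 3 and Lo 11. Without Hi 3 their r was 0.81, and the slope of Fads2 on Fads1, 0.41, was then called (adjusted p = 0.0388). Scd1 and Scd2, which lie at 44394451 to 44407709 and 44293676 to 44306864 on chromosome 19 of mm10, had an r of 0.226, given as a description. Thrsp and Scd1, high together in Lo 4, had an r of 0.499 (permutation p = 0.0254, adjusted p = 0.269) and a rho of 0.328 (permutation p = 0.157, adjusted p = 0.529), with 0.721 within Lo, 0.281 within Hi and 0.37 without Lo 4 and Hi 5.

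The stretch before the start site was read from RefSeq's promoter windows for GRCm38.p6, which is the build of the counts, for 23 of the 30 genes, of which 12 belong to the fatty acid and 11 to the cholesterol branch. Scd1, Scd2, Fads1, Fdps, Fdft1, Sqle and Stard4 had no entry. The 250 bases before each start were searched on both strands for the CCAAT box (CCAAT), the GC box (GGGCGG), to which NF-Y and Sp1 are known to bind beside the SREBPs, and the sterol regulatory element spelt TCACNCCAC. A match is only a match of letters, and a GC box and a CCAAT box can share letters, as in the window of Elovl1. CCAAT stood in a window of 11 of 11 cholesterol genes and 8 of 12 fatty acid genes, against 37.5% of the 27025 genes with a window and 33.8% of the 32851 windows. GGGCGG stood in a window of 11 of 11 cholesterol genes and 6 of 12 fatty acid genes, against 35.4% of genes and 32.7% of windows. TCACNCCAC stood in the window of Hmgcs1 alone, 137 bases before its start, against 1.22% of genes and 1.05% of windows. These shares cover every gene with a window, also genes that did not pass the filter on low counts, while all members passed it. Shares over expressed genes alone were not taken.

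The stretches below are those of Cyp51 and Insig1, the called pair of the cholesterol branch, of Hmgcs1 for its sterol regulatory element, and of Elovl6 and Elovl1, elongase genes on which results here turn. Only the part of each window outside the gene's listed span is shown, so that a match within that span is not seen, among them the CCAAT box of Cyp51. The windows of Msmo1 and Acaca lie mostly or wholly inside their listed spans and are not shown. In the order shown, the stretches lie at chr5:4104747-4104947 (minus strand), chr5:28071162-28071362 (plus), chr13:119690101-119690350 (plus), chr3:129532136-129532385 (plus) and chr4:118427843-118428092 (plus). They are written 5′ to 3′ on the gene's strand, with matches to the 3 motifs on either strand in capitals.
Cyp51: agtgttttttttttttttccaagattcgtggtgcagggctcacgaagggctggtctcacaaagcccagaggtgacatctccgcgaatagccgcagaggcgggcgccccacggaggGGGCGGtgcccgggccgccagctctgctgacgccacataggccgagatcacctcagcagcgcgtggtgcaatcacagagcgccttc
Insig1: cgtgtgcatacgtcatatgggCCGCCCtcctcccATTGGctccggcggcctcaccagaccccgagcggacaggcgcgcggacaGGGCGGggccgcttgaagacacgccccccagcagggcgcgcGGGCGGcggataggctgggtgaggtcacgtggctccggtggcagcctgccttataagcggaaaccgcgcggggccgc
Hmgcs1: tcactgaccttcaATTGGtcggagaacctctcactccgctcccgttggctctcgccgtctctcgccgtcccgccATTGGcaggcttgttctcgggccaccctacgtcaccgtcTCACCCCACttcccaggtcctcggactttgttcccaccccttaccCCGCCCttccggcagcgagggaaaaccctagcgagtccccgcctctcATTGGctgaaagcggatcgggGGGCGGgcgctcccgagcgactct
Elovl6: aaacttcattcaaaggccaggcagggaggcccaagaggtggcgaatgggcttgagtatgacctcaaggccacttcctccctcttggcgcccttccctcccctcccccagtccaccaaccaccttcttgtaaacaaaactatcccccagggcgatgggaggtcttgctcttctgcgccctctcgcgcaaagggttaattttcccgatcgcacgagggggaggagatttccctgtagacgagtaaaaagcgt
Elovl1: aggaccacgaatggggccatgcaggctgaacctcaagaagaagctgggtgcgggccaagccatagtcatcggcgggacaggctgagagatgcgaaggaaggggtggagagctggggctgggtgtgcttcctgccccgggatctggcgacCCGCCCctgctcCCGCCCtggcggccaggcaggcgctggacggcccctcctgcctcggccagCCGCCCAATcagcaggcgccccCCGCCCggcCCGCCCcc

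In these stretches Cyp51 holds 1 GC box, Insig1 holds 1 CCAAT box and 3 GC boxes, and Hmgcs1 holds 3 CCAAT boxes, 2 GC boxes and the sterol element. Elovl1 holds 1 CCAAT box and 5 GC boxes, and Elovl6 holds none of the 3 motifs in these letters.

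The branches were also set beside the cell types that a piece of tumor can hold, by fitting each gene on the mean log2 CPM of a marker list. On the fat cell markers, 0 of 30 members were called, against 0.053% of all genes. At an unadjusted p under 0.05, Msmo1, Mvd and Acaca had negative slopes of -0.13 ± 0.04, -0.11 ± 0.04 and -0.08 ± 0.04 (SE), against 3.25% of all genes, and none had a positive slope, against 3.74%. Scd1 and the fat cell markers had an r of 0.026 (permutation p = 0.915, adjusted p = 0.993) and a rho of -0.0466 (permutation p = 0.848, adjusted p = 0.994), with -0.132 without Hi 4 and Lo 2, 0.355 within Lo and -0.242 within Hi. Fasn had an r of -0.325 (permutation p = 0.161, adjusted p = 0.831) and a rho of -0.382 (permutation p = 0.0977, adjusted p = 0.796), with -0.418 without the same tumors, -0.418 within Lo and -0.271 within Hi. Thrsp had an r of 0.0213 (permutation p = 0.929, adjusted p = 0.994) and a rho of 0.0391 (permutation p = 0.872, adjusted p = 0.996), with -0.0243 without those tumors, 0.657 within Lo and -0.428 within Hi.

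On the milk genes, which code for the caseins and whey proteins of secretory cells, 0 of 30 members were called, against 0.524% of all genes. Their summed level was 7320 to 11462 CPM in Lo and 6514 to 16202 CPM in Hi, most of it Csn3, the kappa-casein gene. Thrsp and Acly had positive slopes at an unadjusted p under 0.05, and Fasn, Acacb, Acss2, Scd2, Dhcr7 and Lss negative ones, against 4.81% and 3.4% of all genes. Thrsp had a slope of 0.43 ± 0.12 (SE, adjusted p = 0.176), and DESeq2 called it, with an adjusted p of 0.0171. Its r with the list was 0.636 (permutation p = 0.0024, adjusted p = 0.261) and its rho 0.68 (permutation p = 0.00147, adjusted p = 0.195), with 0.438 without Hi 8 and Hi 10, 0.423 within Lo and 0.765 within Hi. Of the other pathway genes, Acsl1, a long-chain acyl-CoA synthetase, had a called slope of 0.28 ± 0.04 (adjusted p = 0.000592), and Mylip, a ubiquitin ligase, one of 0.12 ± 0.03 (adjusted p = 0.037).

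On the proliferation genes 0 of 30 members were called, against 1.16% of all genes, with Fads2 and Idi1 positive and Acly negative at an unadjusted p under 0.05, against 5.6% and 4.55% of all genes. On the leukocyte markers 1 of 30 was called, against 3.58% of all genes. At an unadjusted p under 0.05, Elovl1, Elovl6, Thrsp, Srebf1, Acaca, Scd1 and Stard4 had positive slopes and Me1 a negative one, against 9.55% and 6.97% of all genes. The called gene was Elovl1, an elongase of very long chains, with a slope of 0.57 ± 0.12 (SE, adjusted p = 0.0088). Elovl1 lay between 32.5 and 53.5 CPM in Lo (median 39.5) and between 35 and 62.6 CPM in Hi (median 41.9), highest in Hi 5. Its r with the list was 0.739 (permutation p = 0.0002, adjusted p = 0.0185) and its rho 0.672 (permutation p = 0.00169, adjusted p = 0.0795), with 0.694 without Hi 1 and Lo 2, 0.82 within Lo and 0.70 within Hi. Without those tumors the adjusted p of the slope was 0.0509. The summed leukocyte level was 102 to 150 CPM in Lo and 117 to 149 CPM in Hi, mainly from Csf1r, Ptprc and Cd68, and 1 of the 12 markers was at 0 in at least 1 tumor. Of the 26 other fatty acid genes tested, 1 was called on the leukocyte markers and 1 on the proliferation genes. Those slopes were negative, beside 3.58% and 1.16% of all genes called. Of the 23 other cholesterol genes tested, 0 were called on either list.

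Elovl1 lies on chromosome 4 (mm10 positions 118428093 to 118432953), whose genes as a whole differed in level between the tumors. The paper reports that BALB/c alleles were lost along this chromosome in these tumors. It also reports loss of a copy in all F1 tumors that were karyotyped. The chromosome's level in a tumor was taken as the median log2 deviation of its genes with a mean of at least 5 CPM, 738 genes without the members, minus the same over all autosomes. It ran from -0.207 in Lo 2 to 0.374 in Hi 5, with an SD of 0.136. Elovl1 had an r of 0.857 with it (permutation p = 1e-05, the smallest that 100000 permutations can give, adjusted p = 0.00129) and a rho of 0.802 (permutation p = 6e-05, adjusted p = 0.00629), with 0.757 without Hi 5 and Lo 2, 0.919 within Lo and 0.802 within Hi. The leukocyte list itself had an r of 0.847 with the chromosome's level. The partial r of Elovl1 with the leukocyte list given the chromosome's level was 0.0478, and that with the chromosome's level given the list was 0.646 (n = 20, descriptions made after the data were seen). In whole pieces, the copies held by tumor cells and the share of other cells cannot be told apart in the chromosome's level. These values therefore do not separate copy number from cell content.

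Of the 30 members, 2 were called on the level of their own chromosome, against 11.3% of 18228 autosomal genes and 38.7% of 1165 genes of chromosome 4, where Elovl1 is the only member. The other was Sc5d on chromosome 9, with an r of 0.611 (permutation p = 0.00414, adjusted p = 0.0389), a rho of 0.577 (permutation p = 0.00901, adjusted p = 0.0801), and 0.522 without Hi 9 and Lo 4, 0.572 within Lo and 0.613 within Hi. The level of chromosome 9 had an SD of only 0.0213. The median r of the members was 0.151 and that of all autosomal genes tested 0.178.

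**Figure D5:**
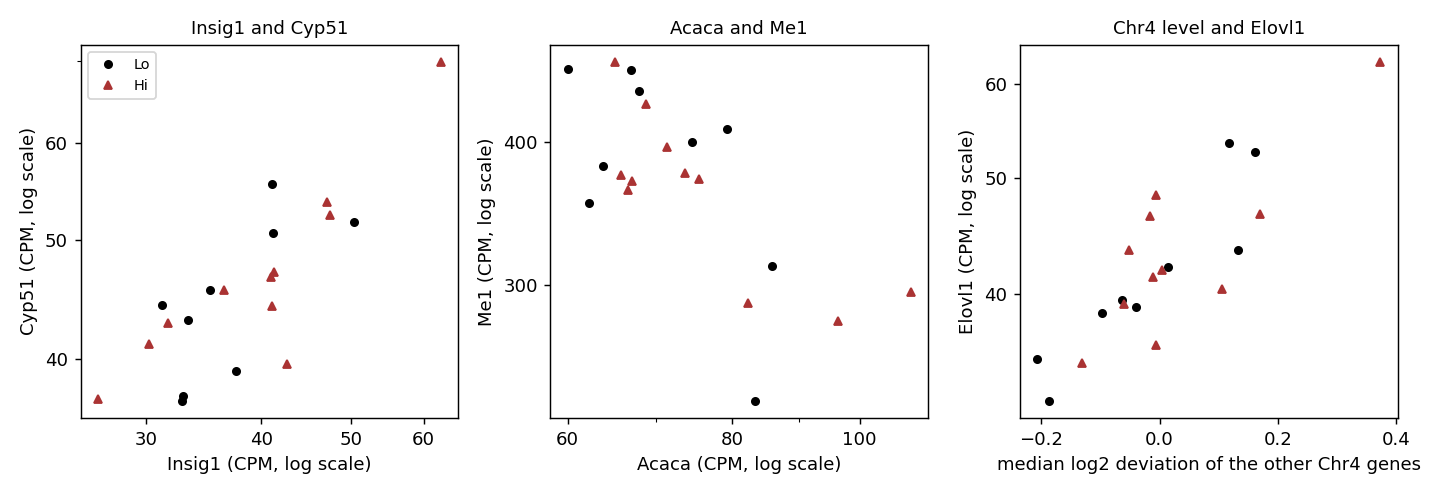
Levels per tumor (black circles Lo, red triangles Hi) of Cyp51 against Insig1, of Me1 against Acaca, both in CPM on log axes, and of Elovl1 (CPM, log axis) against the median log2 deviation of the other chromosome 4 genes. Hi 3 is the top right point of the left panel, the middle panel falls from left to right (r = -0.711), and Hi 5 is the highest point of the right panel (62.6 CPM).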

How the data were processed

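RNA of 20 tumors was sequenced from poly(A)-selected libraries by paired-end reads. The authors aligned the reads to mm10 with TopHat2 2.0.12 and counted them per gene with featureCounts 1.4.4, in the MapRseq workflow, and deposited raw counts of 43346 genes with the length of each gene model. The strand setting and annotation release are not given in the sources used here, so reads of overlapping or antisense genes, and of near-identical copies, could not be told apart.

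From the deposited counts, TMM-scaled CPM, RPKM and log2 CPM (prior count 2) were computed with edgeR 4.0.16 in R 4.3.3. The genes were tested by edgeR's quasi-likelihood test after filterByExpr, in 18883 genes, for Lo against Hi and for slopes on Srebf1, Srebf2 or the mean log2 CPM of a marker list, whose own genes were left out of that fit. P-values were adjusted by Benjamini-Hochberg over all genes of a fit, and a gene was called at an adjusted p under 0.05. Correlations over tumors were tested two-sided by 100000 permutations and adjusted over all genes of the same measure. Numpy 2.4.6, pandas 2.3.3 and scipy 1.17.1 in Python 3.11.15 were used, with matplotlib 3.10.9 for the plots. The fits were tested on simulated data first.

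The text names all 30 members, any other pathway gene called on Srebf1 or Srebf2 (there was none) and the defining markers, and other genes only where a result turned on them; some genes the rule would name are not reported here. The members and lists were chosen with earlier results of these data known. DESeq2 1.42.0, other size factors, totals without the ribosomal RNA locus, no filter, added terms and left-out tumors were the alternatives. The slopes on each member, the levels of chromosomes and the fits without Hi 3 were added after the data were seen. Each tumor came from a separate animal, and no tumor was left out of the main fits.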

Additional observations from a re-analysis of the deposited data

Results flagged for a closer look

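In the group of 9 Lo tumors, 30 genes were examined for a single tumor that stands far from the others, by the gap to its nearest neighbour over the group's range (Dixon's 95% critical value). The 11 Hi tumors are too many for that rule. It marked 5 values, where chance alone marks about 1 in 20 groups, or 1.5 of 30. All 5 lay in Lo 8 or Lo 4. The 30 genes come from the same 9 libraries and partly vary together, so the marks are not independent. The 2 numbers side by side are no test of an excess.

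The tumor Lo 8 was marked in 3 genes. Its Acss2 level was 41.54 CPM, with the 8 other Lo tumors at 20.8 to 27.4 CPM and a gap of 0.679 of the range. Its Acacb level was 26.74 CPM, with the others at 17.6 to 22.1 CPM and a gap of 0.504. Its Acly level was 132.2 CPM, below the others at 156.2 to 175.8 CPM, with a gap of 0.551. Lo 8 was also the highest of all 20 tumors for Acss2 and Acacb and the lowest for Acly. It was the lowest of the 20 in other genes too, among them Srebf2, Hmgcs1, Stard4 and Elovl6. The same held for the epithelial markers Epcam (876 CPM), Cdh1 (272 CPM) and Elf3 (8.8 CPM). The 8 epithelial markers together were not low in Lo 8: they summed to 3409.6 CPM, within the 2699.8 to 4313 CPM of all tumors. The part of these genes was not tested.

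The tumor Lo 4 stood apart in Scd1, at 1216 CPM against 513.6 to 801.4 CPM in the others (gap 0.59 of the range), and in Thrsp, at 15.4 CPM against 3.07 to 8.28 CPM (gap 0.578). It was the highest of all 20 tumors in both. Lo 4 also had the highest summed level of fibroblast markers, 2274 CPM, and of endothelial markers, 112 CPM. Its fat cell markers summed to 46.7 CPM, near the top of the Lo range. Of them, Pck1 (4.09 CPM) and Aqp7 (0.497 CPM, below the filter on low counts) were highest of the 20 there. The other fat cell markers were highest in other tumors. These were Lo 9 for Adipoq, Hi 6 for Lep and Retn, Hi 7 for Cfd and Hi 9 for the rest. The lipid uptake genes Lpl (21.2 CPM) and Cd36 (46.2 CPM) were also highest in Lo 4. Within Lo, Thrsp had an r of 0.657 with the fat cell list, but that r was -0.428 within Hi and 0.0213 over all 20 tumors. The part of these markers in the Scd1 and Thrsp values of Lo 4 was not tested.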

How the results depend on the processing

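Among the alternatives, no slope of the single genes and called pairs followed there changed sign, and no median r of the branches did. Some r of single genes did. That of Fasn with Srebf1, 0.199 over 20 tumors, was -0.0235 within Lo. Those of Scd1 and Thrsp with the fat cell markers, 0.026 and 0.0213, were negative within Hi and without the 2 farthest tumors. The order of branch medians changed on Srebf2 in the 3 settings given in the report. On the proliferation genes with Lo or Hi as a term, the fatty acid and cholesterol medians went from 0.12 and 0.04 to 0.05 and 0.14. The median r between the branches passed that of the fatty acid branch within Lo, within Hi and without the ribosomal RNA locus. The cholesterol median on Srebf1 turned negative without Hi 3. Of the values that answer a comparison, 136 stayed within a set margin of the main value and 32 moved beyond it. The margin was a ratio for counts of calls and a leave-one-out error for medians. Of those for the single genes and the 9 called pairs followed there, 309 stayed, 22 lost a call and 1 gained one. The gain was Thrsp on the milk genes under DESeq2 (1 member called, adjusted p = 0.0171). A value that was not called and remained so counts among the 309. Only the 9 pairs and Elovl1 on the leukocyte markers had a call to lose, so the 22 losses all fell on these. Elovl1 on the leukocyte markers lost its call (0 members called) without the 2 tumors farthest from the median. The cause was not tested for any of these.

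The counts over all genes moved most. With no filter on low counts, 1 gene was called between Lo and Hi, 27 on Srebf1, 58 on Srebf2, 32 on the fat cell markers and 152 on the milk genes. DESeq2 called 1, 10, 2, 30 and 156 in the same comparisons, 1076 on the leukocyte markers and 400 on the proliferation genes. Without the 2 farthest tumors, 24 were called on the milk genes, 222 on the leukocyte markers and 22 on the proliferation genes. The permutation test called 6 on the fat cell markers and 43 on the milk genes.

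The called ordered pairs within the cholesterol branch, within the fatty acid branch and between them numbered 4, 10 and 7 with totals that leave out the ribosomal RNA locus, 0, 5 and 1 with Lo or Hi as a term, 0, 0 and 0 without the 2 farthest tumors, and 0, 4 and 0 without Hi 3. Pairs outside the 9 were among these, such as Fads2 on Fads1 and Elovl1 on Me1 without Hi 3, and Thrsp on Acly with Lo or Hi as a term. The median spread of the fatty acid genes was 0.239 without the ribosomal RNA locus and 0.237 within Hi, and their median r was 0.11 within Hi. Leaving that locus out of the totals moved the median slope of all genes on Srebf2 from -0.02 to 0.13, with the cholesterol genes at 0.80 and the fatty acid genes at 0.51.

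The title numbers do not pair the tumors: over 9 numbers, the deviations of the Lo and Hi tumor of a number had an r of -0.418 to 0.208, 3 of them over 0.1, and 1 Lo tumor was closest to its own number. A fit with that number as replicate block called 0 members and 0 genes, and 868 genes (4.64%) had an unadjusted p under 0.05.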
